A study of Homo sapiens with 5 samples.

Results

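The chromosomal surroundings of 5 genes for C/EBP transcription factors were followed through the drug-induced differentiation of HL60, an established cell line from a human promyelocytic leukemia. The genes lie in 4 bins of 500 kb on the human genome build hg19. CEBPA and CEBPG share the chromosome 19 bin that starts at 33.5 Mb, CEBPE lies in the chromosome 14 bin at 23.5 Mb, CEBPB in the chromosome 20 bin at 48.5 Mb and CEBPD in the chromosome 8 bin at 48.5 Mb. Each bin was taken with 5 bins on either side, which gave 44 of the 6083 bins on the autosomes and chromosome X. The bins were set by the position of the genes and not by any measured value, but the genes were chosen with earlier results of these data known. Contacts had been measured by Hi-C, which ligates DNA fragments that lie near each other in the nucleus after cutting with HindIII and counts the ligated pairs. The groups were HL60 cells treated with all-trans retinoic acid (ATRA, 1 library), cells treated with the phorbol ester TPA (2 libraries) and untreated cells (2 libraries). The sources used here give no doses or treatment times. Each group was held in 1 contact matrix, with its libraries merged, so there was no spread between replicates. All intervals are 95% intervals that cover counting error only, no p-value is given, and treatment and library cannot be told apart.

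C/EBP proteins are basic leucine zipper factors that bind DNA as dimers and steer myeloid differentiation. C/EBP alpha, the product of CEBPA, is needed for granulocytes to form from their progenitors and halts proliferation. C/EBP gamma, from CEBPG, lacks an activation domain of its own and acts as a dimer partner. C/EBP epsilon, from CEBPE, drives the last steps of granulocyte maturation, including the genes for specific granule proteins. C/EBP beta, from CEBPB, acts in emergency granulopoiesis and in monocytes and macrophages, and C/EBP delta, from CEBPD, is induced in acute inflammatory responses. In HL60 cells ATRA leads to granulocyte-like cells and TPA to macrophage-like cells. Hi-C divides chromosomes into an A compartment, rich in genes and active chromatin, and a B compartment with fewer genes, and bins of one compartment contact each other more often. No transcript was measured here, so nothing in these data gives the expression of the genes.

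The promoters of CEBPA and CEBPE are shown because their bins had lower contact with the A compartment after treatment, CEBPA in both treatments and CEBPE in TPA, and because they differ in sequence type. Both are RefSeq promoter windows on the build GRCh38.p14, 250 bases before to 50 bases after the start of the gene, on the gene's own strand and with each CG in capitals. The contact matrices are on hg19, so the windows illustrate the genes and were not joined to a bin by coordinates.
CEBPA, chr19:33302485-33302784, minus strand: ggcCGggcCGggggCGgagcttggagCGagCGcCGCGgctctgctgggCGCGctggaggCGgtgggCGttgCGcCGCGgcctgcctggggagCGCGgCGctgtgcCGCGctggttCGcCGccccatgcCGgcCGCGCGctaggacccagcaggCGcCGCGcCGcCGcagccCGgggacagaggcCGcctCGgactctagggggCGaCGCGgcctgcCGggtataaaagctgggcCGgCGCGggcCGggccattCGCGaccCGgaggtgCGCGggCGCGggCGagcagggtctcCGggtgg
CEBPE, chr14:23119206-23119505, minus strand: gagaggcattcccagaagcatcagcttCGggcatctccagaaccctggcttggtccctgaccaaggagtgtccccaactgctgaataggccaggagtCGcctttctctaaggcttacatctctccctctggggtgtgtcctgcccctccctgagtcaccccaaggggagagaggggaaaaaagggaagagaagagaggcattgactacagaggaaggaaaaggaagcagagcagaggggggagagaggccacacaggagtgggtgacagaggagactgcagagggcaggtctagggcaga
The CEBPA window was 80.7% G and C and held 50 CG pairs, more than 98.7% of the 35116 promoters in the RefSeq table, whose median was 14. The CEBPE window was 57.7% G and C and held 2 CG pairs, and 11% of promoters held fewer. The 2 CEBPB windows held 31 and 43 CG pairs and the 2 CEBPG windows 43 and 45, so CEBPE stood apart from the other C/EBP genes in the table. The TATA element TATAAA was found on the gene strand in the CEBPA window and in 1 CEBPB window, and in 7.33% of all promoters. The HindIII site AAGCTT, where the Hi-C enzyme cuts, was in none of these windows on either strand, and in 5.84% of all promoters. The letters TTGCNNAA, a pattern that covers C/EBP binding sites, were also in none of them on either strand and in 10.5% of all promoters. CEBPD was named by its bin only. The RefSeq gene table places 0 protein-coding genes between CEBPA and CEBPG, and the bins are too wide to separate the pair.

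The ATRA matrix held 9632300 contacts, the TPA matrix 10423501 and the untreated matrix 10628045, with a median bin of 3272, 3466 and 3461 contacts in that order. The bin of CEBPA and CEBPG held 3216 contacts in ATRA, 4362 in TPA and 4782 in untreated cells. CEBPE had 3892 contacts in ATRA, 4449 in TPA and 5116 in untreated cells, and CEBPB had 3750 in ATRA, 4971 in TPA and 5774 in untreated cells. The CEBPD bin was close to the median bin, with 3559 contacts in ATRA, 3777 in TPA and 3869 in untreated cells. In the CEBPD window the bin at 46 Mb, at the end of a gap of 44 to 46.5 Mb, had 0 contacts, and the next bin was too thin for most measures. This left 42 window bins of the 5630 kept over all chromosomes.

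The bins holding CEBPA, CEBPE and CEBPB took a smaller part of all contacts after treatment, most of all in ATRA cells, and CEBPD did not. Coverage, the contacts of a bin scaled to the total of its matrix, had a log2 ratio at CEBPB of -0.48 (-0.54 to -0.42) in ATRA against untreated cells and of -0.19 (-0.24 to -0.13) in TPA against untreated cells. At CEBPA and CEBPG the ratios were -0.43 (-0.50 to -0.37) in ATRA and -0.10 (-0.16 to -0.05) in TPA. CEBPE had -0.25 (-0.31 to -0.19) in ATRA and -0.17 (-0.23 to -0.12) in TPA. CEBPD had 0.02 (-0.04 to 0.09) in ATRA and -0.01 (-0.07 to 0.06) in TPA, and both intervals include 0. Set directly against each other, TPA exceeded ATRA at CEBPA by 0.33 (0.26 to 0.39) and at CEBPB by 0.29 on the log2 scale.

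How these ratios compare with the same chromosome differed between the loci. On chromosome 19 the median of the 102 kept bins outside the window was itself -0.38 in ATRA and -0.15 in TPA. The CEBPA bin therefore lay inside the range of its chromosome, and 41 of those bins were lower in ATRA and 64 in TPA. Scaled to the total of chromosome 19, the CEBPA window had the opposite sign, at 0.17 in ATRA and 0.07 in TPA, in place of -0.13 and -0.03. On chromosome 20 the median was -0.005 in ATRA and -0.03 in TPA, and 3 and 2 of 109 bins lay below the CEBPB bin. On chromosome 14 the median was 0.08 in ATRA and 0.01 in TPA, and 8 and 2 of 165 bins lay below CEBPE. The CEBPB and CEBPE bins thus stood at the low end of their chromosomes, whereas the CEBPA bin moved with a lower chromosome 19.

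Coverage varied within each window. Of the 42 window bins, 10 were lower by more than 1.2-fold in ATRA (7.64% of all kept bins were), made up of 6 in the CEBPB window, 3 in the CEBPA window and 1 in the CEBPE window. In TPA 0 window bins were lower by that much, against 0.213% of all bins. The only bin that was higher past 1.2-fold was 1 of the CEBPD window, at 47 Mb, with 0.29 in ATRA (2.27% of all bins were called) and 0.31 in TPA (0.337% were called). The median window bin had -0.05 in ATRA and -0.02 in TPA, against 0.08 and 0.03 over all kept bins. In the CEBPB window the 6 lower bins in ATRA were the one at 46 Mb and those at 47 to 49 Mb, while the last bin, at 51 Mb, was higher by 0.19.

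**Figure D1:**
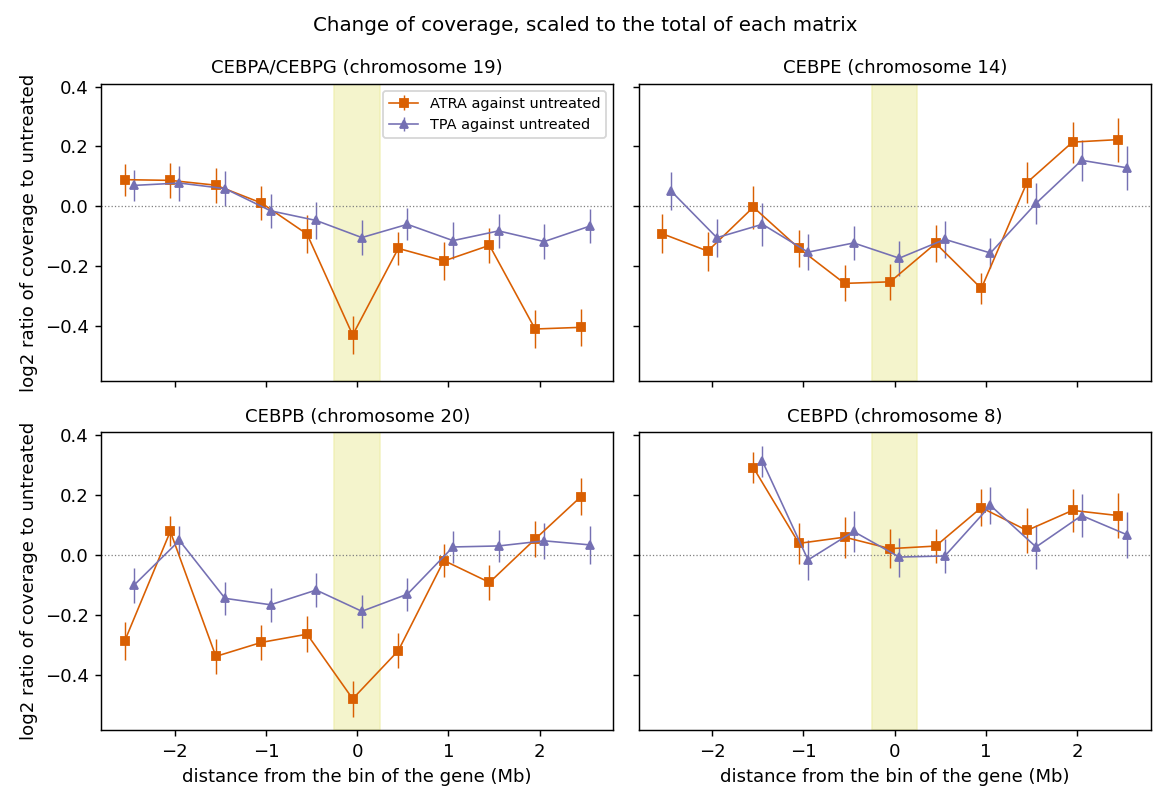
Log2 ratio of coverage, ATRA (squares) and TPA (triangles) against untreated cells, by distance in Mb from the bin of the gene, with 95% counting intervals and the gene's bin shaded. In ATRA cells the lowest point of the CEBPA and CEBPB windows was the gene's own bin, at -0.43 and -0.48, and the CEBPD window stayed at or above 0.02. In the CEBPA window the bins at 35.5 and 36 Mb, at -0.41 and -0.40, had intervals that overlap that of the gene's bin.

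The compartment of a locus was read from its partners on other chromosomes. The A:B contact ratio is the contacts of a bin with A bins over its contacts with B bins of other chromosomes, relative to the coverage of those bins, so that 1 means no preference. It is an average over cells, so a shift in every cell and a larger shift in some of them cannot be told apart. Over all kept bins the median ratio was 0.856 in ATRA, 0.842 in TPA and 0.791 in untreated cells. CEBPB had the strongest A preference of the 4 loci, with 2.89 (2.59 to 3.22) in ATRA, 2.66 (2.42 to 2.92) in TPA and 2.88 (2.62 to 3.16) in untreated cells. These values overlapped within counting error, and the log2 changes were 0.01 (-0.20 to 0.21) in ATRA and -0.12 (-0.30 to 0.07) in TPA. CEBPD stood near 1 in each group, with 1.04 (0.925 to 1.17) in ATRA, 1.18 (1.05 to 1.32) in TPA and 1.03 (0.915 to 1.15) in untreated cells. In untreated cells the order was CEBPB, CEBPA, CEBPE and CEBPD, and the intervals of CEBPA and CEBPE overlapped. The medians of their own chromosomes in untreated cells were 1.16, 2.18, 0.859 and 0.732 in that order. The CEBPA bin, higher than 54.9% of chromosome 19 bins, was thus typical of its chromosome. The chromosome 19 median was 1.25 in ATRA and 1.51 in TPA.

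The bin of CEBPA and CEBPG had a lower A preference after both treatments. Its ratio was 1.25 (1.10 to 1.42) in ATRA and 1.27 (1.15 to 1.41) in TPA, against 2.29 (2.07 to 2.54) in untreated cells. Behind these ratios were 401 contacts with A bins and 694 with B bins in ATRA, 630 and 903 in TPA, and 866 and 650 in untreated cells. The log2 change was -0.87 (-1.10 to -0.64) in ATRA and -0.85 (-1.06 to -0.64) in TPA, and TPA and ATRA differed by 0.02 (-0.21 to 0.25). Neighbouring bins showed the same direction, and the bin at 35.5 Mb had 1.27 in ATRA, 1.51 in TPA and 2.19 in untreated cells. Over the whole window the change was -0.64 in ATRA and -0.54 in TPA. The rest of chromosome 19 was lower as well, with medians of -0.41 in ATRA and -0.40 in TPA. Of its 102 other bins, 21 were lower than the CEBPA bin in ATRA and 4 in TPA, so CEBPA lay toward the low end of a chromosome whose upper quartile was also below 0, at -0.20 in ATRA and -0.16 in TPA.

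CEBPE differed between the treatments. Its A:B ratio was 1.91 (1.74 to 2.10) in ATRA and 1.44 (1.32 to 1.58) in TPA, against 2.14 (1.97 to 2.33) in untreated cells. The contacts were 863 with A and 932 with B bins in ATRA, 882 and 1056 in TPA, and 1255 and 956 in untreated cells. The log2 change against untreated cells was -0.57 (-0.75 to -0.40) in TPA. In ATRA it was -0.17 (-0.35 to 0.01), an interval that includes 0. The direct difference of TPA and ATRA was -0.41 (-0.59 to -0.22). This stretch of chromosome 14 is joined to chromosomes 3 and 21 in these cells. Partners on chromosome 21 are left out of every A:B ratio, and with those on chromosome 3 left out too the difference was -0.33 (-0.52 to -0.14), and TPA against untreated was -0.53 (-0.71 to -0.35). The median of the other chromosome 14 bins was 0.05 in ATRA and 0.004 in TPA, and 6 of 165 bins lay below CEBPE in TPA and 25 in ATRA. TPA also lay below ATRA in other bins of the window. The bin at 24 Mb had 1.15 (1.04 to 1.26) in TPA and 1.47 (1.33 to 1.61) in ATRA, and the bin at 22 Mb had 0.837 (0.750 to 0.933) in TPA and 1.09 (0.978 to 1.21) in ATRA. The bins at 21, 21.5 and 22.5 Mb had the opposite order, and at 21.5 Mb TPA had 2.11, ATRA 1.93 and untreated cells 1.84.

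**Figure D2:**
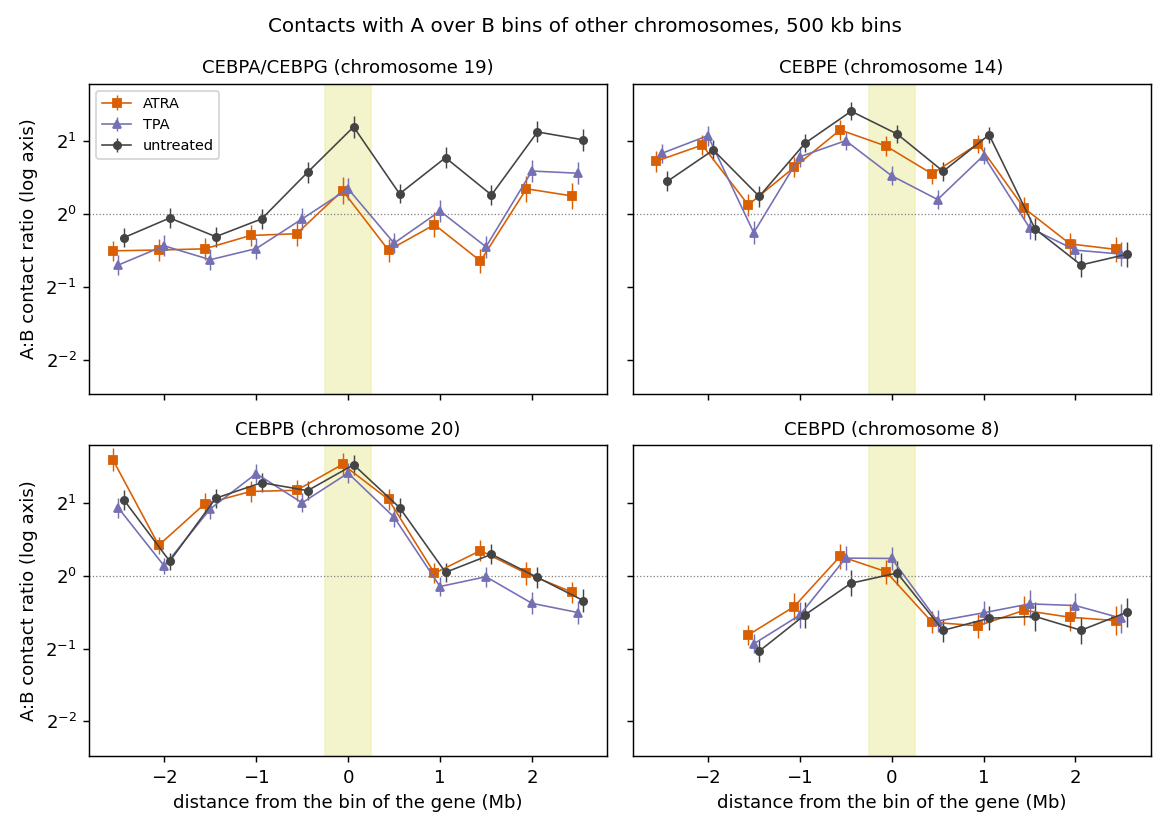
Contacts with A bins over contacts with B bins of other chromosomes (log axis, 1 means no preference) by distance in Mb from the gene's bin, for ATRA (squares), TPA (triangles) and untreated cells (circles), with exact 95% counting intervals. Untreated cells lie above both treatments across the right side of the CEBPA window, TPA lies lowest at the CEBPE bin, and the 3 curves overlap at the CEBPB bin.

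An eigenvector of all contacts between chromosomes, scaled to an SD of 1 and positive on the A side, gave a second view of largely the same contacts. CEBPA scored 0.70 in ATRA, 0.68 in TPA and 1.72 in untreated cells. CEBPE scored 2.05 in ATRA, 0.98 in TPA and 2.59 in untreated cells. The CEBPE change in TPA, -1.61, was lower than that of every other kept chromosome 14 bin (0 of 165 were lower). In ATRA, at -0.54, 11 were lower. Joined pairs are kept in this score, each pair capped at 20 times the mean, whereas the A:B ratio leaves them out. By the A:B ratio 6 of 165 bins had a lower change than CEBPE in TPA and 25 in ATRA. CEBPB scored 2.81 in ATRA, 2.74 in TPA and 2.50 in untreated cells, and CEBPD 0.27, 0.29 and 0.14 in the same order. All 4 genes' bins stayed on the A side by this score in all 3 matrices. Among the 11 bins around CEBPA, 3 were on the A side in ATRA and 4 in TPA, against 9 in untreated cells. All 11 scored lower than untreated in both treatments, as did 2602 of 5630 kept bins in ATRA and 2595 in TPA. The other 102 kept chromosome 19 bins had median changes of -0.53 in ATRA and -0.58 in TPA. Of these, 32 had a lower change than the CEBPA bin in ATRA and 27 in TPA. The CEBPE window had 7 A bins in ATRA and 7 in TPA, against 8 in untreated cells. CEBPB had 9 in ATRA and 7 in TPA, against 10 in untreated cells, and CEBPD had 2 in each group. A switch was called when the untreated and treated scores of a bin had opposite signs and each exceeded 0.5 SD in size. By that rule 2 window bins went to the B side in ATRA, both near CEBPA (0.0888% of all kept bins were called). In TPA 3 did, 2 near CEBPA and 1 near CEBPE (0.266% of all kept bins), and 0 went to the A side in ATRA (background 0%) or TPA (0.0888%). None of these was a bin that holds a C/EBP gene.

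The compartment score computed along each chromosome separately depended more on how it was computed. CEBPB scored 1.51 in ATRA, 1.48 in TPA and 1.37 in untreated cells, and CEBPD scored 1.43, 1.45 and 1.39 in the same order. Without balancing, CEBPB scored 0.60 in ATRA, 1.41 in TPA and -1.10 in untreated cells, and CEBPD scored -0.74, 0.03 and -0.60 in the same order. With the eigenvector that follows chromosome 19 most closely, CEBPD scored -0.47 in untreated cells. The side of CEBPD in ATRA and untreated cells, and of CEBPB in untreated cells, therefore held only for balanced matrices. For CEBPD in untreated cells it also held only for the leading eigenvector. In TPA CEBPD stayed just on the A side without balancing, at 0.03. In the balanced matrices CEBPD lay in an A stretch of 2 bins. The bin before it, at 48 Mb, scored 1.57 in ATRA, 1.2 in TPA and 0.91 in untreated cells, while the next one, at 49 Mb, scored -0.96, -1.13 and -0.70. The bin of CEBPA and CEBPG was close to the boundary, at -0.04 in ATRA, -0.44 in TPA and 0.17 in untreated cells. The scores of chromosomes 19, 20 and 8 correlated with the untreated ones at 0.824 to 0.953 across bins, which are not independent. On chromosome 14 this correlation was -0.88 for ATRA and 0.65 for TPA, so the axis itself differed between matrices. The CEBPE scores of 0.71 in ATRA, 1.12 in TPA and 0.51 in untreated cells are therefore no measure of a change. By this score 22 of 42 window bins were on the A side in ATRA and 18 in TPA, against 16 in untreated cells, and 11, 9 and 4 of these were in the CEBPE window. Switches numbered 0 of 42 in either direction after either treatment. Over all kept bins 1.28% went to B and 0.995% to A in ATRA, and 1.56% and 0.337% in TPA.

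Contact with the gene-rich chromosomes 17, 19, 20 and 22, leaving out a locus's own, was lower after treatment around CEBPA and CEBPB and, in TPA, at CEBPE. It is given as observed contacts over those expected from coverage. The CEBPA bin had 1.33 (1.15 to 1.54) in ATRA and 1.37 (1.22 to 1.53) in TPA, against 1.78 (1.61 to 1.97) in untreated cells, from 191, 297 and 369 contacts. The log2 changes were -0.42 (-0.68 to -0.16) in ATRA and -0.38 (-0.61 to -0.16) in TPA. CEBPE had 1.59 in ATRA and 1.30 in TPA, against 1.74 in untreated cells, with changes of -0.13 (-0.31 to 0.04) in ATRA and -0.42 (-0.60 to -0.25) in TPA. Only 2 of the 165 other chromosome 14 bins had a lower change than CEBPE in TPA, and 21 had in ATRA. CEBPB had 1.76 in ATRA and 1.67 in TPA, against 2.08 in untreated cells, with changes of -0.24 (-0.46 to -0.02) in ATRA and -0.32 (-0.51 to -0.12) in TPA. CEBPD stayed near the expectation, with 0.95 in ATRA, 1.16 in TPA and 1.01 in untreated cells. Both its changes against untreated cells had intervals that include 0, and TPA exceeded ATRA by 0.29 (0.03 to 0.56) on the log2 scale.

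The size of these changes varied between single partner chromosomes. The CEBPA bin met chromosome 22 at 1.26 times the expectation in ATRA and 1.81 in TPA, against 2.68 (2.23 to 3.21) in untreated cells, from 37, 84 and 120 contacts. The log2 change was -1.09 (-1.67 to -0.55) in ATRA and -0.57 (-0.99 to -0.15) in TPA. With chromosome 17 the CEBPA changes were -0.21 in ATRA and -0.22 in TPA, and with chromosome 20 they were -0.15 and -0.38. Each of these intervals includes 0. With chromosome 21, which is not in the gene-rich group, the same bin had 1.67 in ATRA, 1.88 in TPA and 1.59 in untreated cells, and the intervals overlapped. CEBPE met chromosome 17 at 1.36 in ATRA and 0.903 in TPA, against 1.52 in untreated cells, a log2 change of -0.75 (-1.11 to -0.41) in TPA. With chromosome 19 CEBPE had 2.08 in ATRA and 1.67 in TPA, against 2.36 in untreated cells. With chromosome 22 CEBPE had 1.78 in ATRA and 1.49 in TPA, against 2.08 in untreated cells. That log2 change was -0.48 (-0.89 to -0.08) in TPA. With chromosome 20 CEBPE had 1.4 in ATRA, 1.38 in TPA and 1.33 in untreated cells, so the lower contact in TPA was not shared by every gene-rich chromosome. CEBPB met chromosome 19 at 1.62 in ATRA and 1.67 in TPA, against 2.34 in untreated cells. With chromosomes 17 and 22 the CEBPB changes had intervals that include 0 in both treatments.

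**Figure D3:**
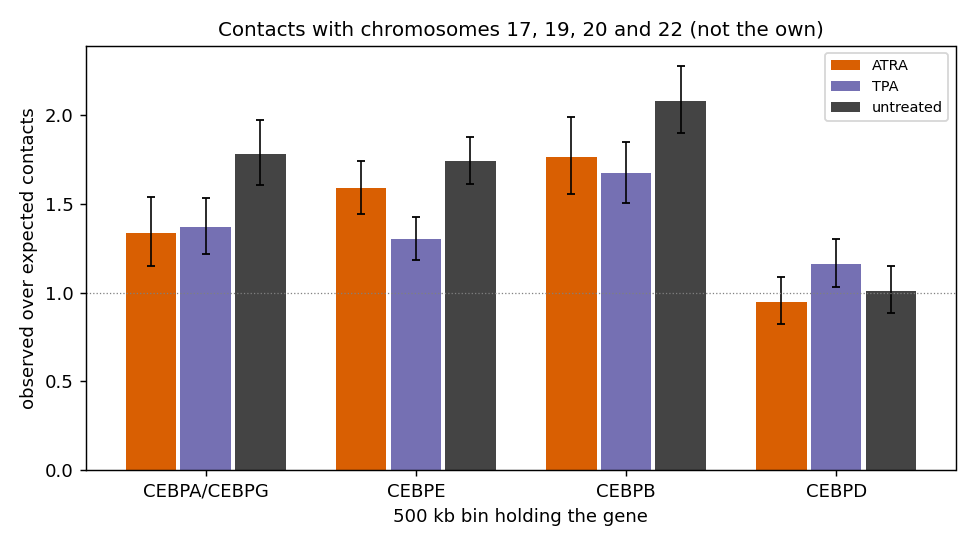
Observed over expected contacts of the 4 bins holding C/EBP genes with chromosomes 17, 19, 20 and 22, own chromosome left out, in ATRA, TPA and untreated cells; bars show the ratio and whiskers the Poisson 95% interval. CEBPA, CEBPE and CEBPB stand above the expectation of 1 in all groups, and CEBPD stands near it.

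Of the 42 window bins, 9 had lower contact with gene-rich chromosomes by more than 1.2-fold in ATRA, all 9 in the CEBPA window (6.64% of all kept bins were called). In TPA 14 had, with 6 near CEBPA, 5 near CEBPB and 3 near CEBPE (10.1% of all kept bins). Higher contact past 1.2-fold was seen in 2 window bins in each treatment, where 14.8% of all bins were called in ATRA and 16.9% in TPA. The median window bin changed by -0.11 in ATRA and -0.16 in TPA, against 0.06 and 0.07 over all kept bins. All 11 bins around CEBPA had lower values in both treatments, as did 10 of 11 around CEBPB in ATRA and 11 in TPA. Over all kept bins, 2130 of 5630 were lower in ATRA and 2162 in TPA. The CEBPA window lay on a chromosome whose other bins had medians of -0.36 in ATRA and -0.37 in TPA. On chromosome 20 these medians were -0.15 in ATRA and -0.22 in TPA, and 30 and 33 of 109 bins lay below the CEBPB bin, so CEBPB was within the range of its chromosome.

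CEBPE had the shortest reach of the 4 loci along its own chromosome. Of its contacts with other chromosome 14 bins, 79.0% lay within 2 Mb in ATRA and 75.3% in TPA, against 84.0% in untreated cells. The chromosome 14 medians were 31.0% in ATRA, 30.2% in TPA and 40.8% in untreated cells. CEBPD had 20.3% within 2 Mb in ATRA and 21.3% in TPA, against 29.4% in untreated cells. These were the lowest shares of the 4 loci, but they were typical of chromosome 8, whose medians were 21.8% in ATRA, 21.6% in TPA and 28.3% in untreated cells. Contacts of CEBPD at 10 to 50 Mb made up 49.3% in ATRA and 45.9% in TPA, against 39.4% in untreated cells. CEBPB had 48.0% within 2 Mb in ATRA, 43.9% in TPA and 48.0% in untreated cells, and CEBPA had 38.0%, 40.5% and 43.5% in the same order.

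**Figure D4:**
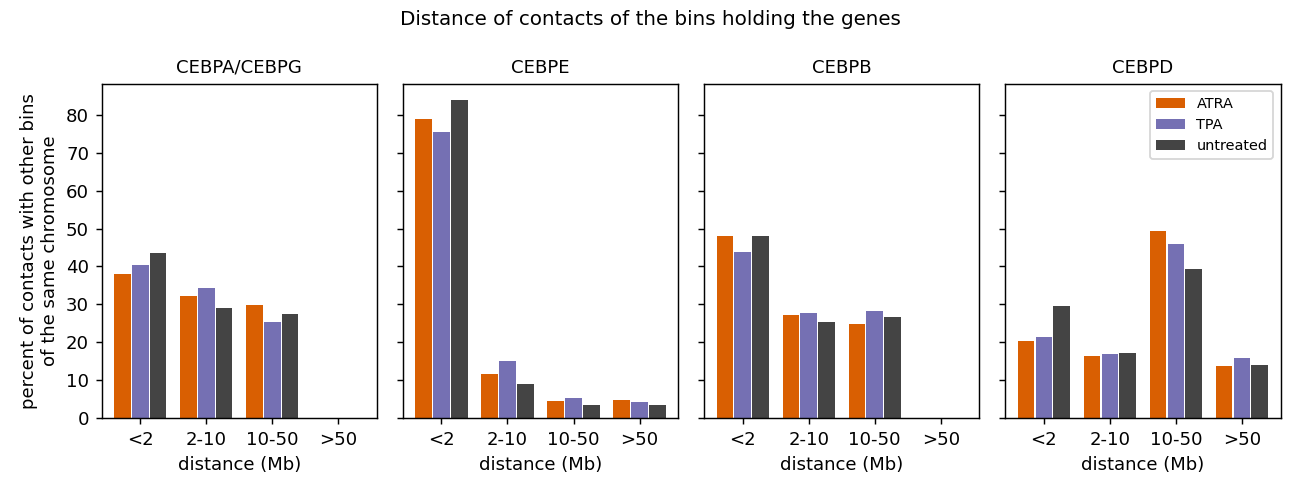
Percent of each gene bin's contacts with other bins of its own chromosome, by distance class in Mb, in ATRA, TPA and untreated cells. CEBPE has 75.3% to 84.0% of them within 2 Mb, and in CEBPD the class of 10 to 50 Mb is the largest in each group.

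A smaller share within 2 Mb was the rule for all chromosomes, and the C/EBP windows followed it. In both ATRA and TPA 41 of 42 window bins had a lower share than in untreated cells, where 96.9% of all kept bins did in ATRA and 98.5% in TPA. The change over all 4 windows was -7.80 percentage points in ATRA and -7.94 in TPA. The CEBPB bin was apart from its chromosome in ATRA, with -0.02 points (-3.54 to 3.49) where the chromosome 20 median was -6.78. Contacts with the own chromosome made up 38.1% of all CEBPB contacts in ATRA and 37.6% in TPA, against 45.3% in untreated cells. The chromosome 20 medians were also lower after treatment, at 28.6% in ATRA and 30.8% in TPA, against 34.4% in untreated cells. Own-chromosome contacts made up 20.8% of CEBPE contacts in ATRA and 21.2% in TPA, against 28.2% in untreated cells, the lowest share of the 4 loci in each group. The chromosome 14 medians were 22.04% in ATRA, 26.98% in TPA and 27.90% in untreated cells. CEBPE was thus close to its chromosome in ATRA and untreated cells and below it in TPA.

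CEBPE lies in a piece of chromosome 14 that is joined to other chromosomes in these cells, in all 3 groups. A pair of bins from 2 chromosomes was called joined when the summed matrices held 20 or more contacts for it, 10 or more times the expectation. The CEBPE window had 46 such pairs, and the windows of CEBPA, CEBPB and CEBPD had 0 within 10 Mb. Of these, 26 were with chromosome 3 at 186 to 196 Mb, at 15.0 times the expectation in ATRA, 17.5 in TPA and 21.4 in untreated cells. The other 20 were with chromosome 21 at 38 to 46 Mb, at 10.5 in ATRA, 9.30 in TPA and 14.5 in untreated cells. These pairs were selected on the summed contacts, so their height is a description. The bin of CEBPE itself met the whole chromosome 3 segment at 6.07 (4.81 to 7.55) in ATRA and 6.04 (4.87 to 7.40) in TPA, against 6.35 (5.17 to 7.72) in untreated cells. With the chromosome 21 segment it had 8.01 (6.52 to 9.74) in ATRA and 6.17 (4.99 to 7.55) in TPA, against 9.35 (7.93 to 10.9) in untreated cells. These 2 segments held 2.06% and 2.57% of all contacts of the CEBPE bin in ATRA, 2.07% and 2.11% in TPA, and 1.97% and 3.03% in untreated cells.

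Contact with the chromosome 3 segment was highest 1 to 1.5 Mb beyond CEBPE. The bin at 24.5 Mb had 8.33 in ATRA and 8.72 in TPA, against 12.6 in untreated cells, and the bin at 25 Mb had 6.84 in ATRA and 9.51 in TPA, against 10.3 in untreated cells. The peak was therefore at 24.5 Mb in ATRA and untreated cells and at 25 Mb in TPA cells, where the intervals of the 2 bins overlap. Contact with the chromosome 21 segment was above the expectation across the window and ended at 28 Mb. In ATRA and untreated cells its highest window bin was that of CEBPE, at 8.01 and 9.35. The bin at 26 Mb had 4.25 (3.12 to 5.65) in ATRA and 5.68 (4.35 to 7.28) in untreated cells. In TPA these 2 bins had 6.17 and 6.45. From 26 to 28 Mb contact with this segment was 4.28 in ATRA, 6.91 in TPA and 6.45 in untreated cells. From 28 to 30 Mb it was 0.565, 0.922 and 0.607 in the same order. This edge was noticed in the contacts and not set in advance. The contacts of CEBPE with its own chromosome thinned out closer to the gene. The bin at 24.5 Mb shared 75 contacts with it in ATRA and 112 in TPA, against 182 in untreated cells, and the bin at 25 Mb shared 9 in ATRA and 22 in TPA, against 13 in untreated cells. The 18 bins from 19 to 28 Mb held 90.4% of them in ATRA and 89.3% in TPA, against 92.3% in untreated cells. The 159 bins beyond held 9.63% in ATRA and 10.7% in TPA, against 7.69% in untreated cells.

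**Figure D5:**
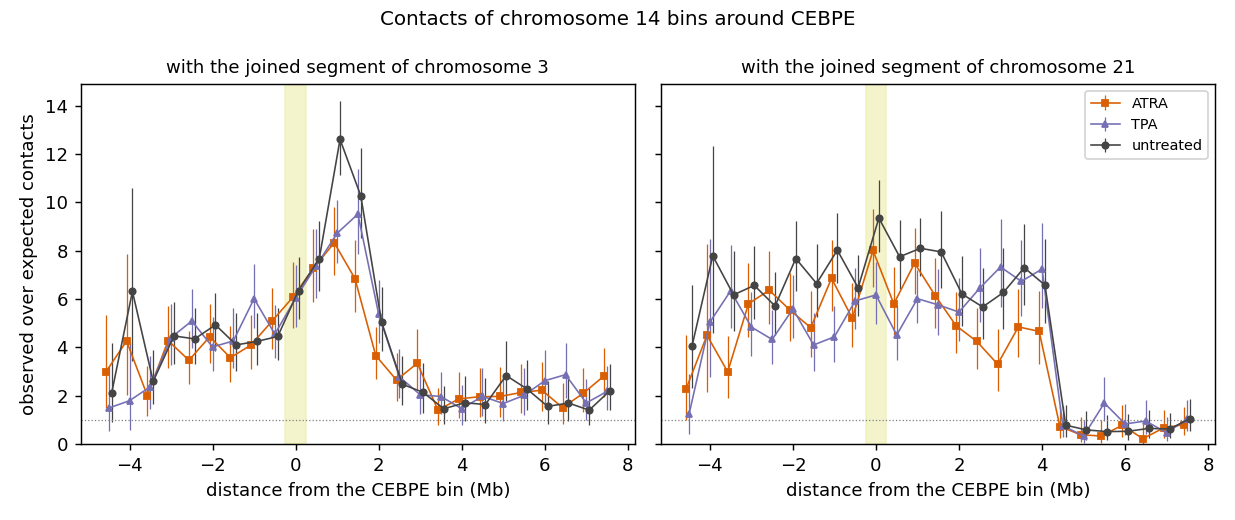
Observed over expected contacts of chromosome 14 bins with the joined segments of chromosomes 3 (left) and 21 (right), by distance in Mb from the CEBPE bin, with Poisson 95% intervals, in ATRA, TPA and untreated cells. Chromosome 3 contact peaks at 12.6 in untreated cells, and chromosome 21 contact is 0.565 to 0.922 over the 2 Mb beyond the edge, with 1 TPA bin at 1.70.

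At the scale of neighbouring bins CEBPD and CEBPB met the bins on either side unequally. The CEBPD bin met the bin at 48 Mb at 2.17 (1.81 to 2.58) times the chromosome's mean for that distance in ATRA and 1.80 (1.50 to 2.14) in TPA, against 1.96 (1.69 to 2.25) in untreated cells. The bin on its other side, at 49 Mb, was met at 0.336 (0.225 to 0.482) in ATRA and 0.490 (0.362 to 0.647) in TPA, against 0.615 (0.497 to 0.754) in untreated cells. CEBPB met the bin at 48 Mb at 1.64 (1.39 to 1.93) in ATRA and 1.28 (1.10 to 1.49) in TPA, against 1.43 (1.27 to 1.60) in untreated cells. It met the bin at 49 Mb more often, with 2.62 (2.29 to 2.98) in ATRA and 1.96 (1.74 to 2.21) in TPA, against 1.90 (1.72 to 2.09) in untreated cells. The next bin, at 49.5 Mb, was met at 0.754 in ATRA and 0.495 in TPA, against 0.651 in untreated cells. The CEBPA bin met the bin at 34.5 Mb at 1.72 in ATRA and 2.14 in TPA, against 1.35 in untreated cells. For CEBPA the adjacent bins at 33 and 34 Mb had 0.641 and 0.613 in ATRA and 0.571 (0.461 to 0.698) and 0.787 (0.671 to 0.916) in TPA, against 0.759 and 0.851 in untreated cells. The intervals of both CEBPE neighbours overlapped within each group. At 23 Mb it had 1.85 (1.58 to 2.16) in ATRA and 1.41 (1.2 to 1.64) in TPA, against 1.55 (1.37 to 1.73) in untreated cells. At 24 Mb it had 1.75 (1.49 to 2.06) in ATRA and 1.11 (0.921 to 1.33) in TPA, against 1.41 (1.24 to 1.60) in untreated cells.

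Contacts between the C/EBP windows, all on different chromosomes, differed by pair. Over the 6 pairs of windows the ratio was 1.05 (0.955 to 1.15) in ATRA and 1.2 (1.11 to 1.30) in TPA, against 1.24 (1.14 to 1.35) in untreated cells. The log2 change was -0.24 (-0.42 to -0.07) in ATRA and -0.05 (-0.22 to 0.12) in TPA. The ATRA interval included 0 with the ratio of the chromosome pairs in the expectation, at -0.17 (-0.35 to 0.0069), and with 3 bins on either side, at -0.22 (-0.48 to 0.04). The pair of CEBPA with CEBPB had 0.755 in ATRA and 1.15 in TPA, against 1.45 in untreated cells, from 61, 114 and 142 contacts. Its log2 change was -0.94 (-1.40 to -0.50) in ATRA and -0.33 (-0.70 to 0.03) in TPA. Chromosomes 19 and 20 as wholes had 1.2 in ATRA and 1.23 in TPA, against 1.52 in untreated cells. CEBPA with CEBPE was the closest pair, with 1.52 in ATRA and 1.55 in TPA, against 1.85 in untreated cells, where chromosomes 19 and 14 as wholes had 0.901, 0.885 and 0.921. The pairs with CEBPD had values below the expectation in untreated cells, but the intervals with CEBPA and CEBPE included it. CEBPD had 0.991 with CEBPA in ATRA and 1.09 in TPA, against 0.941 (0.709 to 1.22) in untreated cells. With CEBPE it had 0.980 in ATRA and 0.977 in TPA, against 0.887 (0.668 to 1.15) in untreated cells. With CEBPB it had 0.782 in ATRA and 0.921 in TPA, against 0.689 (0.499 to 0.928) in untreated cells. The bins that hold the genes shared 0 to 3 contacts with each other, too few to compare.

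For each gene's bin, the bins at least 5 Mb away on the same chromosome with the most similar contact pattern were sought in the summed matrix. CEBPB resembled the bins at 31, 32 and 33 Mb of chromosome 20, each with a correlation of 0.746 over 120 bins, where the median bin had 0.034. CEBPA resembled the bins at 39 Mb (0.633) and 38.5 Mb (0.615) of chromosome 19 over 113 bins, against a median of 0.145. CEBPD resembled bins on both arms of chromosome 8, at 22.5 Mb (0.544), 102 Mb (0.531) and 103.5 Mb (0.527) over 284 bins. For CEBPE the highest value was 0.219, at 73.5 Mb over 176 bins, and the median was -0.143. Bins of one chromosome share their libraries and much of their contacts, so these correlations carry no test.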

How the data were processed

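Per the labels' protocols, cells were crosslinked, cut with HindIII and ligated in solution. The submitters' processing notes name Bowtie, HOMER 4.7 and hg19; the sources used here give no filter settings. The authors deposited raw contact counts between 6203 bins of 500 kb, 1 matrix per group. The 6083 bins on autosomes and chromosome X were used, with the diagonal halved, since it counts each contact from both ends. A bin was dropped where its coverage in 1 or more matrices was below 0.2 times the median, and matrices were balanced in 60 iterations for scores. Score signs follow contact with chromosome 19, or 17 and 22 for chromosome 19 itself. For the A:B ratio, A and B bins lie beyond 0.5 SD of the summed score between chromosomes, and partners on chromosomes 14 and 21 and joined pairs were left out. Depth makes single pairs of bins uninformative, so contacts were summed. Intervals are exact binomial or Poisson, with a normal approximation for log2 A:B changes and for differences between percentages. They leave out non-independent read pairs. The members and lists were chosen with earlier results of these data known. The named genes are the 5 members. Python 3.11.15 with numpy 2.4.6 and scipy 1.17.1 was used. The score along each chromosome, coverage and gene-rich contact were tried on simulated data. The A:B ratio and the eigenvector between chromosomes were not. Related genes planned by name were not analysed here, because no annotation of hg19 was used.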

Additional observations from a re-analysis of the deposited data

How the results depend on the processing

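No paired analysis was possible because the libraries of each group were merged into 1 matrix, and for the same reason no library could be left out. Each result was compared with its value under each alternative setting, so 1 result enters several comparisons. For the main results, 57 comparisons moved by less than the counting interval or count limit, and 29 moved further. In 3 comparisons the sign changed although the main interval excludes 0. For single windows these numbers of comparisons were 57, 43 and 4. Values whose main interval includes 0 also changed sign: contact between windows in TPA, at 0.03 with the ratio of the chromosome pairs in the expectation, and gene-rich contact of the CEBPD window in ATRA, at -0.11 against chromosome length and -0.09 in its gene bin. The number of bins on the A side was 11 in ATRA and 9 in TPA without the CEBPE window, 10 in TPA with a minimum coverage of 0.5 times the median, and 29 in untreated cells by the eigenvector between chromosomes. That eigenvector gave 2 switches to B in ATRA and 3 in TPA. Without balancing there were 1 switch to B and 3 to A in ATRA, and 1 and 6 in TPA. The eigenvector that followed chromosome 19 most closely, an alternative chosen after seeing the data like the omission of CEBPE, gave 1 switch to A in each treatment. Coverage over all windows was -0.0804 in ATRA and -0.0241 in TPA in the main setting. It was -0.0933 and 0.0034 from contacts between chromosomes alone, and 0.0019 and 0.0119 scaled to the own chromosome. With 3 bins on either side it was -0.11 and -0.0459, and in the gene bins alone -0.30 and -0.13. It was -0.0113 in TPA without CEBPE. The CEBPA window changed sign when scaled to its chromosome (0.17 in ATRA, 0.0682 in TPA) and, in TPA, from contacts between chromosomes (0.0128). The CEBPD window in TPA was -0.0067 for its gene bin alone, in place of 0.0984. The share within 2 Mb changed in ATRA by -6.52 points with balanced contacts, -6.14 in the gene bins and -7.01 without CEBPE, and in TPA by -7.31 with contacts within a bin, -6.90 in the gene bins and -6.97 without CEBPE. Contact with gene-rich chromosomes over all windows was -0.170 in ATRA and -0.177 in TPA in the main setting. In ATRA it was -0.34 against chromosome length, -0.25 in the gene bins and -0.23 without CEBPE. In TPA it was -0.21 with 3 bins on either side and -0.29 in the gene bins. The cause of these shifts was not tested.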
